A study of Mus musculus with 6 samples.

Results

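The extracellular nucleotide and adenosine pathway was followed through 10 genes, chosen by symbol: Nt5e, Alpl, Entpd1, Entpd2, Enpp1, Ada, Adk, Adora1, Adora2a and Adora2b. All array probes annotated to these symbols were taken, detected or not. Of the 10 genes, 6 had a probe in the annotation used here, with 11 probes in all, and 5 had a probe that was detected and tested. They stand among 10412 genes tested on the same arrays. No probe carried the symbols Enpp1, Adora1, Adora2a or Adora2b in that annotation, and those genes were not analysed here. The choice of the genes was made with the difference between the genotypes known, so their differences are given as a description and without a p-value.

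The samples were lung fibroblast cultures from 3 mice that carried a knock-in allele of p38 on both chromosomes (p38ki/ki, called ki) and from 3 wild-type mice (p38+/+, called wt). Each mouse gave 1 Illumina bead array. All 6 mice were 10 weeks old, and the cells of both genotypes were grown in DMEM/F12 with 15% fetal calf serum and taken at passage 1. The labels give neither the p38 gene that carries the allele nor the change it makes. Fibroblasts build the collagen matrix of the lung, and all 12 listed fibroblast markers were detected on these arrays. So were all 11 tested macrophage markers and markers of other cells, given below. The mean background-subtracted signal ran from 519.4 to 694.7 on the ki arrays and from 712.3 to 846.7 on the wt arrays. Between 17601 and 18531 probes were detected on the ki arrays and between 17793 and 18389 on the wt arrays, at a detection p under 0.05. Below, a signal is the deposited linear intensity before normalisation, a level is the log2 intensity after quantile normalisation, and a difference is the mean level in ki minus that in wt, with its standard error (SE). Each genotype has n = 3 mice, a number that limits how precise any value here can be.

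ATP that leaves a cell is degraded at the cell surface in steps. Ectonucleoside triphosphate diphosphohydrolases such as CD39 (Entpd1) remove phosphates from ATP and ADP, and Enpp1 cleaves ATP to AMP and pyrophosphate. The ecto-5'-nucleotidase CD73 (Nt5e) and alkaline phosphatase (Alpl), both held at the membrane by a lipid anchor, then split AMP into adenosine and phosphate. Adenosine acts on G protein-coupled receptors, and it is removed by adenosine deaminase (Ada), which makes inosine, or by adenosine kinase (Adk), which makes AMP inside the cell. In the lung this pathway is known for its part in inflammation and fibrosis, and mice that lack Ada accumulate adenosine and develop lung disease.

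The stretches just upstream of the Nt5e and Alpl start sites are shown because these 2 genes had the low values in ki. They hold the 250 bases before each start in RefSeq's annotation of GRCm38.p6, written 5' to 3' on the gene's strand. Nt5e has 1 start in that table and Alpl has 2. Nt5e lies at chr9:88327359-88327608 on the plus strand, the first Alpl start at chr4:137796385-137796634 and the second at chr4:137766476-137766725, both on the minus strand. Capitals mark matches to the motifs searched, other than NCGTG, on either strand.
Nt5e: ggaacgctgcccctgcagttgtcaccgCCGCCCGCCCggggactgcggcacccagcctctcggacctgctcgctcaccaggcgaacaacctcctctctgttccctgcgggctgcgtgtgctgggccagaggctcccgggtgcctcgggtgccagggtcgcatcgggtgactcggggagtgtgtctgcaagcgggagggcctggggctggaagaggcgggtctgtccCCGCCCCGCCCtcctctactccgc
Alpl, first start: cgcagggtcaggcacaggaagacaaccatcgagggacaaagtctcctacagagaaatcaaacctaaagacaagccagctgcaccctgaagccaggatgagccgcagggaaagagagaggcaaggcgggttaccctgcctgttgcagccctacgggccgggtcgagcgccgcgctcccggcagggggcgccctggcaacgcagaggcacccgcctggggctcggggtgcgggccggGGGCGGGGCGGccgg
Alpl, second start: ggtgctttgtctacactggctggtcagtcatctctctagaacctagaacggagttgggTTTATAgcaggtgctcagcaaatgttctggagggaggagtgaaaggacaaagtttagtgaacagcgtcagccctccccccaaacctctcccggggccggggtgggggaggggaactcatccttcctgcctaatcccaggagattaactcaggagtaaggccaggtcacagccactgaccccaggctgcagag

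The Nt5e stretch held 4 matches to GGGCGG, the core of a GC box, read on the other strand as CCGCCC. They form 2 overlapping pairs, whose first bases lie 223, 219, 24 and 19 bases before the start. The first Alpl stretch held 2 overlapping matches, 15 and 10 bases before the start, and the second held none. The letters GGGCGG were present in 32.7% of the 32851 upstream stretches in the table, and in 9 of the 13 stretches listed for 9 of the 10 genes. TATAAA, the letters of a TATA box, was found in the second Alpl stretch (12.4% of all stretches), read as TTTATA on the strand shown, 192 bases before that start, and in neither of the other stretches shown. TGACGTCA, a cAMP response element (1.55% of all), TGANTCA, which includes AP-1 sites (6.75%), and GGAATG, a TEAD site (12.6%), were found in none of the 3. NCGTG, where N is any base, includes the core of a hypoxia response element and is wider than it (55.4%). It was found once, in the Nt5e stretch. The G and C share was 72.0% for Nt5e, 68.4% for the first Alpl start and 56.0% for the second, against a median of 52.4% over all stretches. A match describes these letters only.

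Nt5e and Alpl, whose enzymes form adenosine from AMP, were far dimmer in the ki cultures. Nt5e was 5.08-fold lower in ki on its brighter probe and 4.59-fold lower on its dimmer one, and Alpl was 4.68-fold lower. Entpd2, Ada and Adk differed by much less. Of the 5 tested members 2, Nt5e and Alpl, passed an adjusted p under 0.05 in limma's fit over all genes, both lower in ki, beside 16.2% of all genes (7.50% lower in ki and 8.71% higher). The ki and wt arrays did not overlap for 3 of the 5 (Nt5e, Alpl and Adk), beside 38.4% of all genes (18.1% lower and 20.3% higher in ki). Nothing is read from these counts, because this contrast chose the genes. The median difference was -0.14 over the 5 tested members and 0.007 over all genes tested. In these bulk cultures fewer cells of a type and less RNA per cell cannot be told apart.

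**Figure D1:**
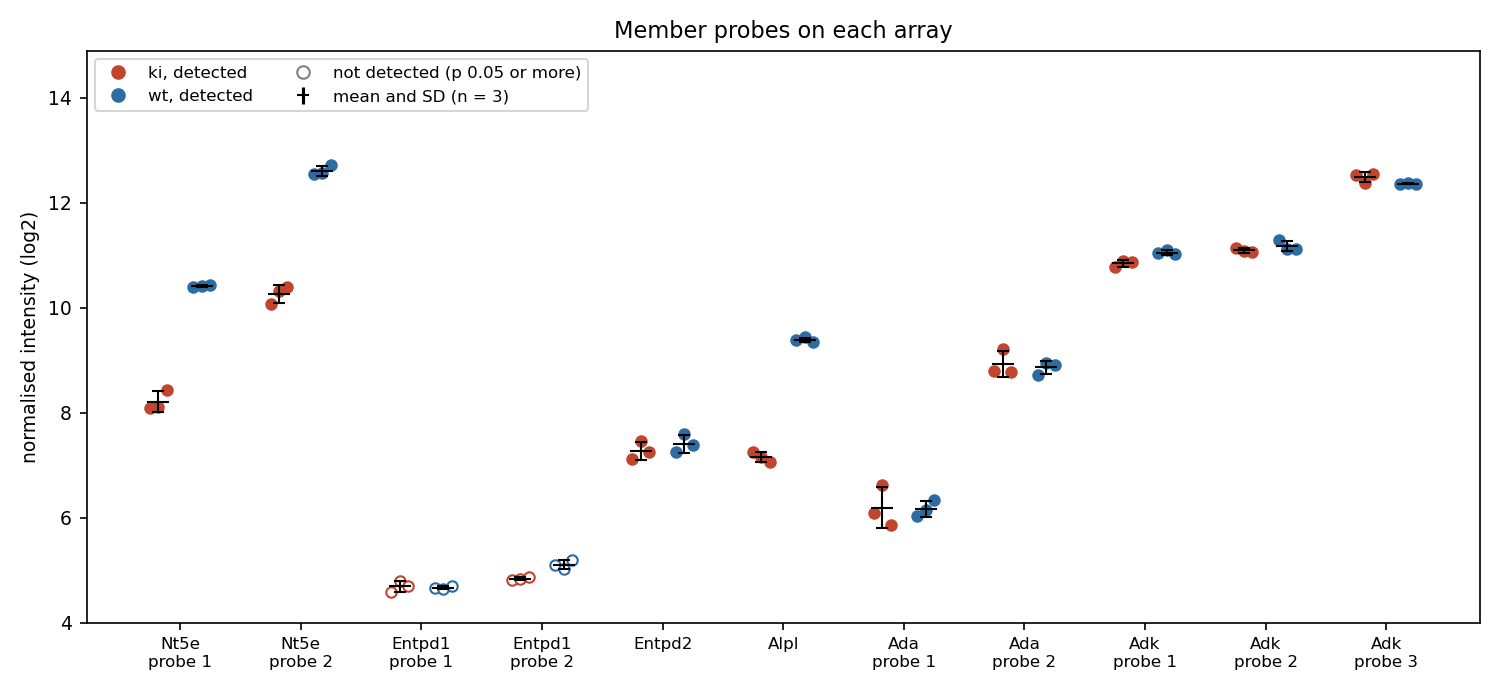
Levels of all 11 member probes on each array, as normalised log2 intensity (vertical axis), with ki arrays left of wt arrays. Dots are single mice, open dots were not detected, and black bars give the mean and SD (n = 3). Both Nt5e probes and the Alpl probe lie lower on all 3 ki arrays, both Entpd1 probes are undetected on all 6 arrays, and the other probes overlap or lie close together.

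Nt5e encodes CD73, the main surface enzyme that turns AMP into adenosine and a marker of mesenchymal stromal cells. Its brighter probe (ILMN_2813830) had signals of 1068, 927 and 1338 on ki arrays 1, 2 and 3, against 7339, 6376 and 7017 on wt arrays 1, 2 and 3. After normalisation its levels were 10.07, 10.32 and 10.39 in ki, against 12.54, 12.56 and 12.72 in wt. The highest ki array lay more than 2 log2 units under the lowest wt array, and the mean difference was -2.34 (SE 0.109).

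The dimmer Nt5e probe (ILMN_2636285) had signals of 261, 192 and 336 on the ki arrays, against 1601, 1390 and 1397 on the wt arrays. Its levels were 8.09, 8.11 and 8.44 in ki, against 10.39, 10.41 and 10.44 in wt. The wt arrays lay close together on it (SD 0.0252), while the ki arrays spread more widely (SD 0.195), with ki array 3 the highest. The difference was -2.20 (SE 0.11), so both probes gave the same direction and nearly the same size. Both probes were detected on all 6 arrays, so Nt5e RNA remained measurable in each ki culture.

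Alpl encodes the tissue-nonspecific alkaline phosphatase, a surface enzyme that hydrolyses pyrophosphate and AMP and is needed for bone mineral. Its single probe (ILMN_2661287) had signals of 139.9, 94.5 and 124 on the ki arrays, against 796, 699 and 646 on the wt arrays. Its levels were 7.25, 7.16 and 7.07 in ki, against 9.38, 9.44 and 9.35 in wt. The groups did not overlap, the spread within each was small (SD 0.0908 in ki and 0.0456 in wt), and the difference was -2.23 (SE 0.0799). By size of difference Nt5e stood 11th and Alpl 13th from the lowest of the 10412 genes, a rank that goes with their choice.

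Both differences kept their direction across the ways of processing tried, and their size shifted with some of them. The brighter Nt5e probe ranged from -2.62 to -2.25 over the 17 alternatives that give a value per probe, and Alpl from -2.44 to -1.99. Leaving out any 1 array moved the Nt5e probe only between -2.41 and -2.25 and Alpl between -2.27 and -2.18.

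**Figure D2:**
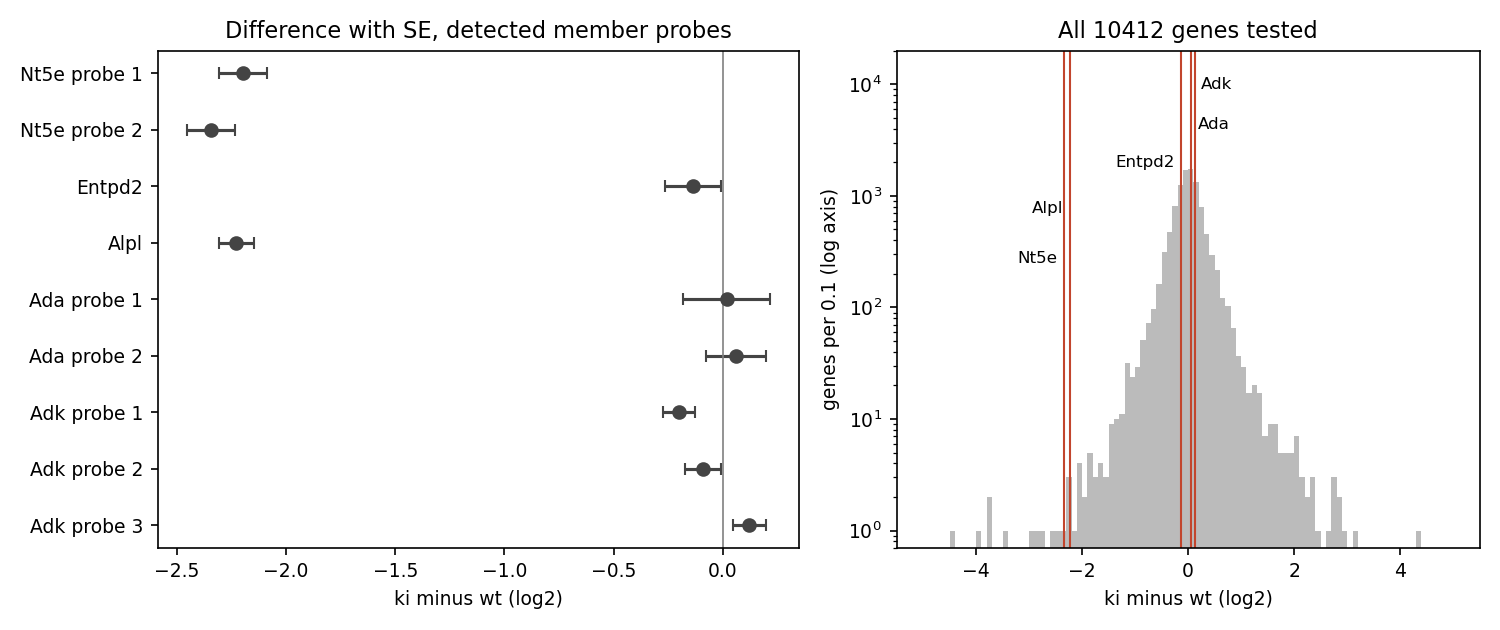
Left, the difference ki minus wt on the log2 scale with its SE for the 9 detected member probes. Right, the same difference for all 10412 genes tested (vertical axis, genes per bin of width 0.1, log scale), with red lines at the 5 tested members. Nt5e and Alpl lie beyond -2 in the left tail, and Entpd2, Ada and Adk lie near 0.

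Of the upstream enzymes only Entpd2 was measured above background, and no probe carried the symbol Enpp1. Entpd1 encodes CD39, which converts ATP and ADP to AMP on leukocytes and endothelium. Neither of its probes (ILMN_1222379 and ILMN_2659560) was detected on any array of either genotype, with detection p from 0.74 to 0.981 in ki and from 0.342 to 0.952 in wt. The signals of the first probe were -39.6, -17.4 and -39.3 in ki, against -39.6, -33.9 and -27.9 in wt, below the background that had been subtracted. The second gave -17.8, -14.6 and -15.5 in ki, against 2.40, -2.10 and 6.80 in wt. Both genotypes were at background on both probes, so no fold is given. Whether these probes can report Entpd1 RNA was not tested. On the same arrays the macrophage markers Lyz2 and C1qb, the brightest of their list, stood at levels of 16.01 and 14.35 in ki and 15.97 and 14.64 in wt.

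Entpd2 encodes an ecto-ATPase that prefers ATP over ADP. Its probe (ILMN_1237670) was detected on all 6 arrays, with signals of 125.2, 118.7 and 142.1 in ki, against 165, 181 and 151 in wt. After normalisation the levels were 7.11, 7.46 and 7.26 in ki, against 7.25, 7.60 and 7.38 in wt. The groups overlapped, and the difference of -0.13 (SE 0.128) was within the spread of the arrays. The unnormalised signals did not overlap, and the mean signal over all probes was likewise lower on each ki array than on any wt array.

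The enzymes that remove adenosine had levels close together in both genotypes. The brighter Ada probe (ILMN_2686132) had signals of 433, 423 and 432 in ki, against 493, 492 and 471 in wt. Its levels were 8.79, 9.21 and 8.78 in ki, against 8.73, 8.95 and 8.92 in wt. The highest value came from ki array 2 and the groups overlapped, with a difference of 0.061 (SE 0.138). The dimmer Ada probe (ILMN_1228696) lay near background, with levels of 6.09, 6.62 and 5.86 in ki, against 6.03, 6.15 and 6.33 in wt, and a difference of 0.018 (SE 0.199).

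Adk, the kinase that returns adenosine to AMP inside the cell, had 3 probes, and they did not move together. The brightest (ILMN_2986899) had signals of 5783, 3846 and 5808 in ki, against 6471, 5603 and 5433 in wt. Its levels were 12.54, 12.39 and 12.55 in ki, against 12.37, 12.38 and 12.36 in wt. All 3 ki arrays lay above the wt arrays by a small margin, with a difference of 0.12 (SE 0.0773). The probe ILMN_2455920 lay the other way, with levels of 10.78, 10.90 and 10.88 in ki, against 11.05, 11.10 and 11.02 in wt (difference -0.20, SE 0.0745). The third (ILMN_2702471) overlapped between the genotypes, with a difference of -0.091 (SE 0.0811). The brightest probe, which stood for the gene, did not pass the threshold. Under scaling to the median of all probes, where the median gene stood at -0.217, the brightest Adk probe was at -0.19 and the brighter Ada probe at -0.16, so their sign turns with the scaling.

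The genes around these members showed how the rest of the pathway stood. A list of 70 further genes covered ATP release, other surface enzymes, P2 receptors for nucleotides, nucleoside transporters, intracellular purine enzymes and the receptor Adora3. Of them 67 had a probe and 44 were tested. The list was drawn up with earlier results of these data known, so its counts and p-values describe these arrays and are no independent test. Among the 44, 9 rose and 4 fell in ki at an adjusted p under 0.05 by limma, that is 13 genes. Of all genes tested 16.2% passed (8.71% higher in ki and 7.5% lower), and these shares stand beside the counts by role below. The median difference over the 44 was 0.072. The split between the directions depended on the processing: it was 2 higher and 6 lower under scaling to the median of all probes, 5 higher and 5 lower with the mean of a gene's probes, and 5 higher and 2 lower with the replicate block. Of the 13, 5 passed with any single array left out (Dpp4, Ahcy, Enpp5, Lrrc8a and P2rx5), and the others missed the threshold without at least 1 array. The count ran from 6 to 11 with 1 array left out, and was 6 without wt replicate 2 or without wt replicate 3, 7 without ki replicate 1 and 8 without ki replicate 3.

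**Figure D3:**
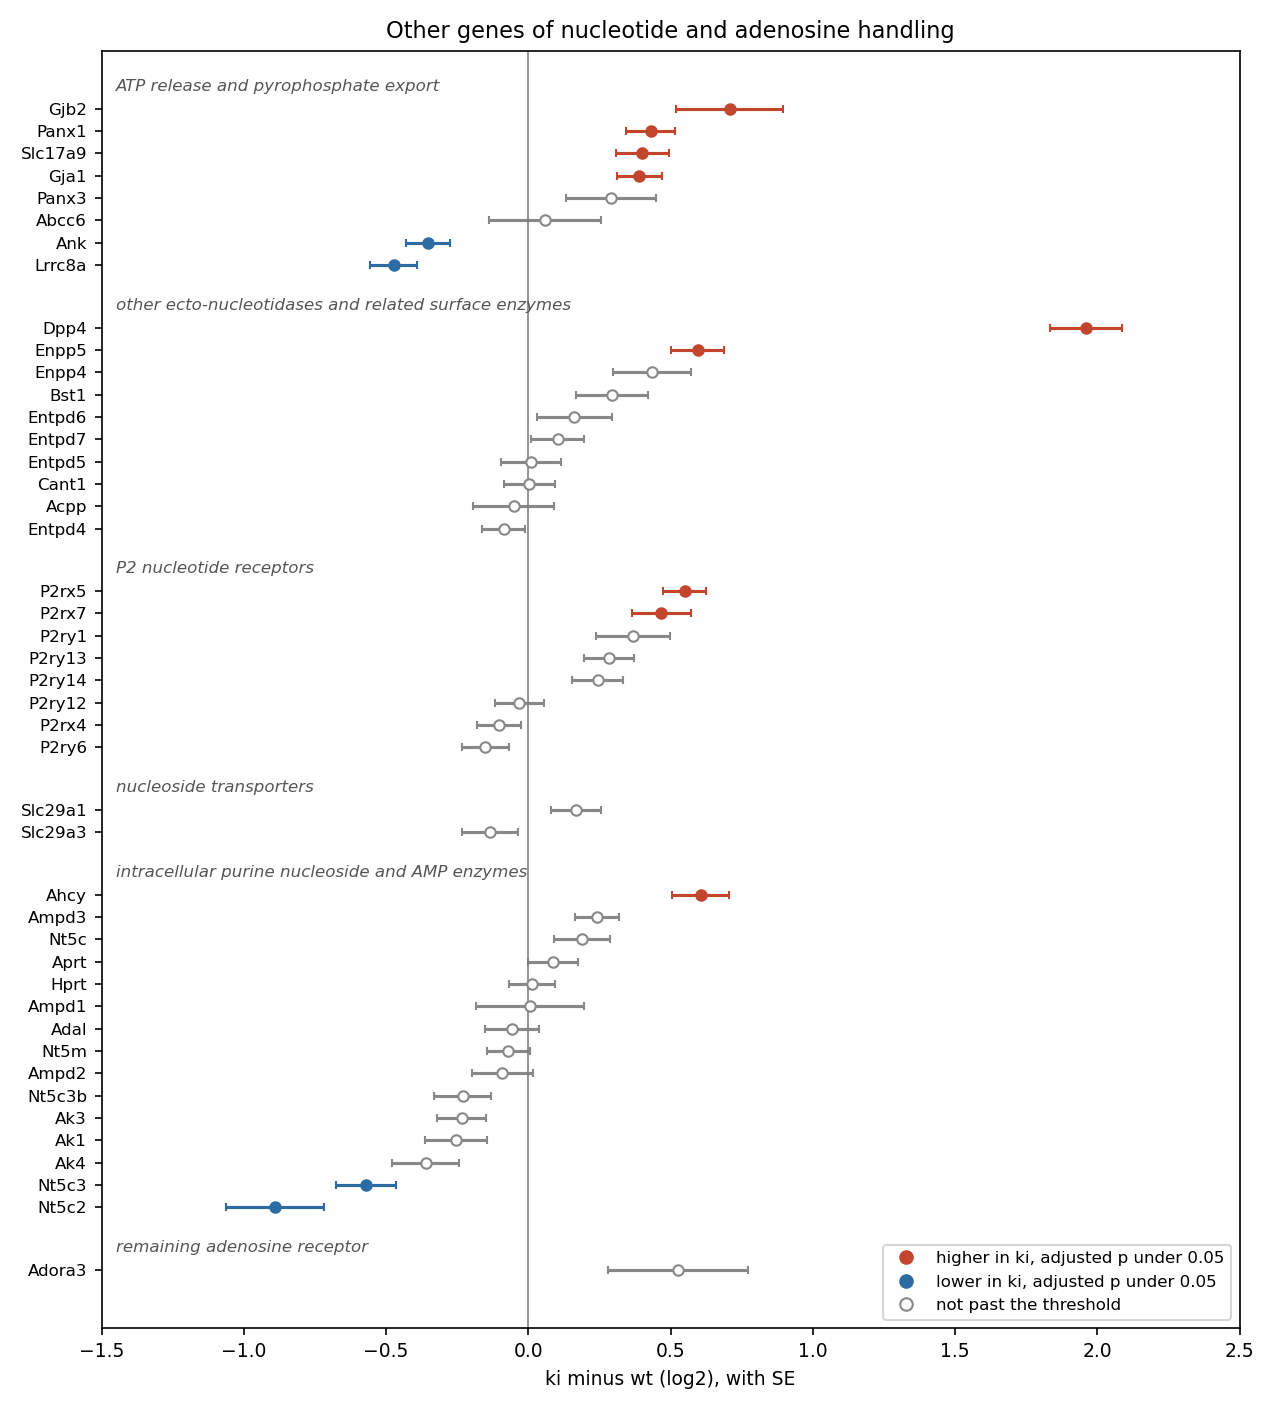
Difference ki minus wt on the log2 scale (horizontal axis) with its SE for the 44 tested genes of nucleotide and adenosine handling outside the 10 members, grouped by role. Red dots passed an adjusted p under 0.05 higher in ki, blue dots lower, and open dots did not pass. Dpp4 lies far to the right of all others, at 1.96.

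Among other surface enzymes, 2 of 10 tested genes rose and 0 fell. Dpp4 encodes CD26, a surface peptidase and not a nucleotidase, that in humans also binds adenosine deaminase. That binding was not measured in these mouse cells. Its signals were 582, 383 and 562 in ki, against 130.3, 130.6 and 154.5 in wt, and its levels were 9.23, 9.06 and 9.16 in ki, against 6.96, 7.19 and 7.41 in wt. The groups lay far apart, with Dpp4 3.89-fold higher in ki (difference 1.96, SE 0.126, adjusted p = 0.000217 by limma, range 4.02e-13 to 0.00456 over the alternatives). The second Dpp4 probe was undetected on all arrays. Enpp5, a member of the Enpp family, was 1.51-fold higher, with 10.46 ± 0.0932 in ki and 9.87 ± 0.116 in wt (SD), and missed the threshold under scaling to the median of all probes (adjusted p = 0.174). Of the other Entpd genes Entpd4, Entpd5, Entpd6 and Entpd7, named after their values were seen, were detected, with differences between -0.087 and 0.16, none past the threshold. Acpp (also called Acp3), the prostatic acid phosphatase, which can likewise form adenosine from AMP, was also named after its values were seen. It lay near background, with levels of 5.66, 5.71 and 5.87 in ki, against 5.50, 5.99 and 5.92 in wt. The groups overlapped, and its difference of -0.052 (SE 0.143) did not pass.

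Genes of ATP release and pyrophosphate export went both ways, with 4 of 8 higher and 2 lower, beside 8.71% of all genes higher and 7.5% lower. Lrrc8a, a subunit of the volume-regulated anion channel, was 1.39-fold lower in ki, with levels of 9.20, 9.17 and 9.07 in ki, against 9.72, 9.59 and 9.55 in wt (adjusted p = 0.0109 by limma). Its groups did not overlap, its other probe gave -0.46, and it passed in all 18 alternatives. Ank, which exports ATP and pyrophosphate, was 1.28-fold lower. Gja1 (connexin 43) and Panx1 (pannexin 1), which form channels that pass ATP, were 1.31-fold and 1.35-fold higher. Scaling to the median of all probes put Gja1 at 0.065 and Panx1 at 0.21, neither past the threshold. The other 2 called genes, named after their values were seen, were Slc17a9, the vesicular nucleotide transporter, and Gjb2 (connexin 26), detected on 2 wt arrays. Their differences were 0.40 and 0.71, and the other detected Slc17a9 probe gave -0.12. Ank, Gja1, Panx1, Slc17a9 and Gjb2 missed the threshold without at least 1 array (adjusted p up to 0.12).

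Among P2 receptors, which sense ATP, ADP and UDP before they are degraded, 2 of 8 rose and 0 fell. P2rx5, an ATP-gated channel, was 1.46-fold higher in ki, with levels of 6.50, 6.43 and 6.36 in ki, against 5.91, 5.92 and 5.83 in wt (adjusted p = 0.00451 by limma). The values lay near background, and another P2rx5 probe, detected on 2 arrays of each genotype, gave -0.001. P2rx5 missed the threshold with the mean of its probes (0.27, adjusted p = 0.126), under scaling to the median of all probes (0.46, adjusted p = 0.0725) and with trend and robust moderation (adjusted p = 0.0521). P2rx7, the ATP-gated channel tied to inflammasome activation, was 1.38-fold higher (adjusted p = 0.0258 by limma, up to 0.0873 with 1 array left out). It too missed the threshold under scaling to the median of all probes (0.34, adjusted p = 0.197) and with trend and robust moderation (adjusted p = 0.0803). It rested on 1 of 5 probes, the only one detected.

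Of 15 intracellular purine enzymes tested, 1 rose and 2 fell. Ahcy, which splits S-adenosylhomocysteine into adenosine and homocysteine, was 1.52-fold higher in ki, at 9.07 ± 0.165 in ki and 8.47 ± 0.0231 in wt (SD, adjusted p = 0.00858 by limma). It missed the threshold under scaling to the median of all probes (0.38, adjusted p = 0.14) and with the mean of its probes (0.44, adjusted p = 0.0594). Nt5c2, a cytosolic nucleotidase, was 1.85-fold lower on its brightest probe and differed by -0.28 and -0.22 on the others. Nt5c3, another cytosolic nucleotidase, was 1.49-fold lower. Both missed the threshold without 1 wt array (adjusted p = 0.0519 and 0.0501).

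No nucleoside transporter passed. Slc29a1 and Slc29a3, equilibrative transporters that carry adenosine across membranes, were the 2 tested of 7 on the array, with differences of 0.17 (SE 0.0876) and -0.14 (SE 0.0975), and the other 5 were undetected on all arrays. Adora3, the only adenosine receptor with a probe here, lay near background, at 6.39 in ki and 5.87 in wt, and was detected on 3 ki and 2 wt arrays. Its difference of 0.53 (SE 0.246) did not pass (adjusted p = 0.205 by limma).

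Among all genes tested, those nearest to Nt5e in pattern over the 6 arrays were Lipf, Csta2, Alpl, Cstdc5 and Itga11, at Euclidean distances of 0.407 to 0.449 between log2 levels centred on each gene's mean. Alpl was thus the third nearest to Nt5e, at 0.433. Lipf and Cstdc5 were undetected on all ki arrays and Csta2 was detected on 2, so their levels in ki are near background. The genes nearest to Alpl were Gdf10, Csta2, Itga11, Has2 and Bmp3, at distances of 0.2 to 0.36. Itga11, a collagen receptor subunit, was in both sets, at 10.33 in ki and 12.37 in wt. With 2 groups of 3 arrays this likeness mostly restates the size of the difference between the genotypes.

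Markers of other cells differed on the same arrays, beside 8.71% of all genes called higher in ki and 7.5% lower. These lists too were drawn up with earlier results of these data known. All 10 tested mesothelial markers were higher in ki, with a summed linear level of 10823 to 11595 in ki and 1691 to 1907 in wt, and Upk3b, Upk1b and Krt8 had the smallest p. Neutrophil markers were lower for 9 of 11, with a sum of 5488 to 6523 in ki and 17993 to 19399 in wt. Mpo, Ctsg, Ngp and Camp, the last 2 named after their values were seen, were undetected on all ki arrays. S100a9, of smallest p, and S100a8 and Lcn2, the brightest, stayed detected on all ki arrays, at mean levels of 6.98, 11.43 and 11.05. Prtn3 and Csf3r did not pass (differences -0.097 and 0.17). Human neutrophils carry alkaline phosphatase of the ALPL gene. Fibroblast markers were lower for 5 of 12 and higher for 0, with a sum of 109865 to 116662 in ki and 128554 to 138446 in wt. Col1a2, Thy1 and Col3a1 had the smallest p. Dcn and Fn1, the brightest, did not pass (differences 0.0195 and 0.0336). Nor did Vim (-0.0023), Tcf21 (0.23), S100a4 (0.29), Pdgfrb (-0.27) and Lum (-0.20). Epithelial markers were higher for 4 of 7, Cldn4, Cldn3, Krt7 and Cdh1 (5427 to 5540 in ki, 1494 to 1605 in wt). Scgb1a1, Nkx2-1 and Elf3 did not pass (differences 0.55, 0.44 and -0.13). Epcam, Sftpc, Sftpb and Foxj1 were detected on no array. Macrophage markers were higher for 1 (Adgre1) and lower for 2 (C1qc and C1qa) of 11 (125199 to 132519 in ki, 134602 to 137727 in wt). Endothelial markers passed for 0 of 10, with 4 at an unadjusted p under 0.05 by limma (5033 to 5399 in ki, 5685 to 6133 in wt). The brightest of them, Egfl7 and Emcn, differed by -0.14 and -0.29. Of the osteoblast list 1 gene was tested, Phospho1, and was lower (50 to 54 in ki, 65 to 74 in wt). It lay near background and was detected on 1 ki array and 3 wt arrays. Sp7, Bglap and Col10a1 were detected on no array. Of the T and B lymphocyte list 2 were tested, Cd3e and Cd2, and 0 passed (229 to 255 in ki, 189 to 274 in wt). Neither had an unadjusted p under 0.05 by limma, and Cd3g, Cd4, Cd8a and Ms4a1 were undetected. The part of these markers' cells in the Nt5e, Alpl and Dpp4 values was not tested.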

How the data were processed

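RNA of 6 cultures (3 ki, 3 wt) was hybridised as biotin cRNA to Illumina bead arrays, per the labels. The deposited intensity values, per the file headers, carry a deposited detection p-value for each probe and array. They were background-subtracted before deposit, since 28.6% to 32.0% of probes per array are negative. For the scanner software and the background method, nothing is given in the sources used here. Background was corrected further by normexp (limma 3.58.1, R 4.3.3), with negative controls inferred from the detection p and an offset of 16, followed by quantile normalisation and log2. The test took 18249 probes with a detection p under 0.05 on 3 or more arrays, and the brightest probe stood for a gene (10412 genes). Symbols came from the array annotation, updated by gene identifier: 34885 probes had 1 symbol, 18 several and 10378 none. Of the further genes listed, 2 were matched through RefSeq synonyms (Acpp and Alppl2). Genotypes were compared with lmFit and eBayes, with Benjamini-Hochberg adjustment over all genes. The fit was tried on simulated data with independent noise and planted differences of 1 or 2 log2 units. Smaller differences and effects shared by an array were not simulated. The 3 cultures of a genotype came from different mice, per the series' design text.

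The members and lists were chosen with earlier results of these data known. All members were named with all their probes. Of each further list up to 4 passing genes of smallest p were named (2 if no gene passed). Of marker lists up to 3 passing genes and the 2 brightest were named. So were the 5 genes nearest in pattern to Nt5e and to Alpl. Markers beyond this rule were named after their values were seen. Alternatives tried were no further background correction, both median scalings, the authors' normalised intensities, the series values (equal to these in 100% of cells), offset 50, 2 other detection filters, array weights, trend and robust moderation, omission of each array, a replicate block and the mean of a gene's probes. Headers name no slide. Upstream sequences came from RefSeq tables of GRCm38.p6. matplotlib 3.10.9 (Python 3.11.15) drew the figures.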

Additional observations from a re-analysis of the deposited data

How the results depend on the processing

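The 2 members past the threshold, Nt5e and Alpl, passed in all 18 alternatives, of which the series values repeat the authors' normalised intensities. Nothing is read from this, because this contrast chose the genes. Scaling to the median of all probes shifted the median gene to -0.217 (0.007 with quantile normalisation) and changed the split of genes passing to 361 higher and 1300 lower, against 907 and 781. Under it the other pathway genes passing numbered 8, with 2 higher and 6 lower, and the members' differences moved with the median gene: Nt5e -2.62 and -2.43, Alpl -2.44, Entpd2 -0.32, Ada -0.16 on its brighter probe, and Adk -0.19, -0.36 and -0.47. The sign of Ada and of the brightest Adk probe therefore depends on the scaling. That of the brighter Ada probe also turned without ki replicate 2 (-0.081) and without wt replicate 1 (-0.007). The other pathway genes passing numbered 13 under scaling to probes detected on all 6 arrays (8 higher, 5 lower), 17 with trend and robust moderation (10 higher, 7 lower), 10 with the mean of a gene's probes (5 and 5), 7 with the replicate block and 6 to 11 with 1 array left out. The replicate block left 1198 genes passing, against 1688, and called the same 2 members. Same-numbered mice shared little (correlations of their deviations from the group means 0.0039, 0.0143 and 0.105), and ki replicate 2 correlated best with wt replicate 1 (0.109), so the numbers were not taken as pairs. With 1 array left out, 1012 to 1248 genes passed, and 1012, 1020 and 1015 without wt replicates 1, 2 and 3. Of the 13 other pathway genes, 2 (Dpp4 and Lrrc8a) passed in all 18 alternatives and 11 missed the threshold in at least 1, none changing sign. The slide could not be run as a block. Entpd1 lay at background, and Adora3, Gjb2, P2rx5, Phospho1 and the dimmer Ada probe lay near it, where the size of a difference is uncertain.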
